A study of Mus musculus with 12 samples.

Results

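Bone marrow monocytes, named BMDM by the study, were described by the 300 genes of highest mean signal on 3 arrays, out of 18430 genes that could be ranked. The members were chosen by BMDM signal only: each gene took the mean log2 level over the 3 BMDM arrays, and the genes were put in order of that mean. The name BMDM refers here to monocytes sorted directly from marrow, not to macrophages grown in culture. The series held 6 arrays, 3 of BMDM and 3 of brainstem microglia (BSM), and the same arrays were deposited once as an Aroma table and once as an Expression Console table.

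Both cell types came from untreated C57BL/6 mice of 6 weeks, pooled before sorting, so that each array is a pool and not an animal. BMDM were sorted as CD11b+ CD45high CD115+ Ly6G- cells of the marrow, and BSM as CD11b+ CD45low CD115low Ly6G- cells of the brainstem. RNA of frozen cell pellets was extracted with TRIzol, amplified with the NuGEN WT-Ovation Pico system and hybridised to the Affymetrix Mouse Exon 1.0 ST array. The labels give pool 1 of each cell type as female and pools 2 and 3 as male, as does the sample table in the study's supplement for pool 1, whereas its main text describes male mice. Pool 1 also belonged to an earlier set that went to RNA sequencing, so that sex and set cannot be told apart.

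Classical monocytes leave the marrow through the chemokine receptor CCR2 and are carried by the blood to inflamed tissue, where many become macrophages. They arise in the marrow from progenitors shared with neutrophils, and their youngest stages still divide and still make azurophil granule enzymes. Microglia, the macrophages of the brain, descend from yolk sac precursors and are kept apart from this lineage.

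The signal of a gene on this array depends on its probes as well as on its transcript. An order of genes by signal is therefore an order of array signal, and a small gap between neighbours is not an order of transcripts. Neither table has detection calls, and a dim gene's level holds background as well as signal. Genes of near-identical families (histones, ribosomal proteins and their retrogenes, tubulins, Ly6 and Ifitm genes) can share hybridisation, and single members of those families are uncertain. In sorted pools, fewer cells of a type and less RNA per cell cannot be told apart.

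The cells carried the genes that mark classical monocytes. Chil3, a chitinase-like lectin of maturing monocytes and neutrophils, had a log2 signal of 12.23, 12.23 and 12.24 in BMDM pools 1, 2 and 3, against 4.24, 3.42 and 3.39 in BSM pools 1, 2 and 3. Fn1, the matrix protein fibronectin, had 12.22, 12.25 and 12.21 in BMDM and 4.75, 4.61 and 4.32 in BSM. S100a4, a calcium-binding protein of migrating cells, had 12.11, 12.23 and 12.18 in BMDM and 4.85, 5.94 and 5.41 in BSM. All BMDM pools lay more than 6 log2 units above all BSM pools for these 3 genes, at BMDM ranks 36, 39 and 46.

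Ccr2, the receptor for the exit from marrow, had 10.96, 11.26 and 11.20 in BMDM and 4.91, 4.61 and 4.35 in BSM, at rank 185. Mpo, the peroxidase of azurophil granules, had 12.005, 11.82 and 11.09 in BMDM and 4.62, 4.50 and 4.50 in BSM, at rank 105. Pool 3 was the lowest of the BMDM pools for Mpo, and it was still far above every BSM pool. Clec12a, an inhibitory C-type lectin receptor, had 10.44, 10.49 and 10.39 in BMDM and 4.31, 4.76 and 4.79 in BSM. At rank 371 it was the only one of the 6 markers outside the first 300. By limma, with Benjamini-Hochberg adjustment over 21837 rows, BMDM minus BSM was 8.55 ± 0.21 (SE) for Chil3 (adjusted p = 2.6e-08), 7.67 ± 0.13 for Fn1 (7.4e-09), 6.77 ± 0.24 for S100a4 (1.3e-07), 7.10 ± 0.22 for Mpo (5.9e-08), 6.52 ± 0.16 for Ccr2 (2.3e-08) and 5.82 ± 0.14 for Clec12a (2.4e-08), with 3 pools in each group.

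**Figure D1:**
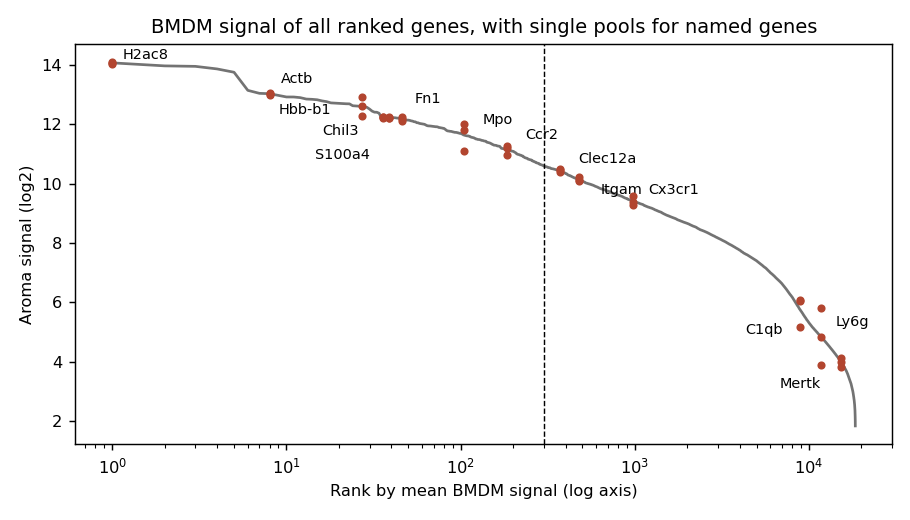
Mean log2 Aroma signal of the 18430 ranked genes over the 3 BMDM pools (line) against rank on a log axis. Points are single BMDM pools of named genes, and the dashed line marks rank 300, where the mean was 10.59. The points of Chil3 lie almost on each other, and those of Mpo, Hbb-b1 and Ly6g spread.

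The genes used for the sort were measured too. Itgam, which encodes CD11b, had 10.12, 10.09 and 10.21 in BMDM and 10.95, 11.06 and 11.05 in BSM. Ptprc, which encodes CD45, had 10.43, 10.55 and 10.68 in BMDM and 10.18, 10.08 and 9.93 in BSM. Csf1r, which encodes CD115, the receptor for the growth factor CSF1, had 10.48, 10.23 and 10.34 in BMDM and 12.34, 12.36 and 12.29 in BSM. Its transcript was thus lower in BMDM by 1.98 ± 0.10 (limma adjusted p = 1.4e-06), although BMDM were gated as CD115+ and BSM as CD115low. Ly6g, the neutrophil surface protein that the gate removed, was dim, with 3.90, 4.82 and 5.79 in BMDM and 3.52, 3.55 and 3.52 in BSM.

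Of 18 measured genes of a classical monocyte list, 9 were among the 300, 16 were among the first 1000 and all 18 were higher in BMDM, with a median level of 10.85 in BMDM and 4.60 in BSM. Ly6c1 and Ly6c2, also on the list, were not among the ranked genes. The study had reported Ccr2 and Clec12a as higher in BMDM, partly from these arrays. For this and the following lists, the shares over all 21837 rows were 21.6% called higher and 28% lower in BMDM. Ms4a6c, a membrane protein of the MS4A family, had 11.38, 11.62 and 11.61 in BMDM and 7.87, 8.02 and 8.001 in BSM. The list for nonclassical monocytes, the patrolling type of the blood, had 11 measured genes, none among the 300 and 2 among the first 1000. Its median was 7.34 in BMDM and 5.15 in BSM, and 8 genes were higher and 2 lower in BMDM. The 2 among the first 1000 were Spn, which encodes CD43, with 10.51, 10.60 and 10.22 in BMDM (rank 370), and Cx3cr1, the fractalkine receptor, with 9.28, 9.37 and 9.58 (rank 980). Cx3cr1 was lower in BMDM than in BSM, where it had 11.68, 11.63 and 11.68. Of 11 microglia genes, none was higher and all 11 were lower in BMDM, with a median level of 5.30 in BMDM and 11.80 in BSM. The list holds F11r, P2ry13 and Cx3cr1, which the study had reported as higher in BSM, partly from these arrays. Its direction is therefore no independent support. The purinergic receptor P2ry12 had 5.02, 5.27 and 5.84 in BMDM and 11.98, 11.70 and 11.73 in BSM.

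Lists of other marrow cells differed widely in level. The T and NK cell list had 11 measured genes, all beyond rank 9215, with a median of 4.72 in BMDM, and the stroma and endothelium list had a median of 4.49. Both medians lie below the median of all ranked genes, 5.61. The B cell list had a median of 5.37 in BMDM and 4.62 in BSM, with 5 of 9 genes higher and 2 lower in BMDM. The chains of the B cell receptor differed in direction, with Cd79a at 7.31, 6.83 and 7.40 in BMDM and 4.39, 4.66 and 5.12 in BSM, and Cd79b at 8.68, 8.18 and 8.52 in BMDM and 8.89, 9.08 and 8.86 in BSM. The marrow macrophage list had 14 measured genes, 8 of them beyond rank 9215, with levels up to 8.75 in BMDM. Its median was 5.23 in BMDM and 6.79 in BSM, with 2 genes higher and 10 lower in BMDM. With each array centred on its median, 2 were higher and 6 lower. The list's complement gene C1qb, with 5.17, 6.04 and 6.09 in BMDM, and its phagocytic receptor Mertk, with 3.81, 4.11 and 3.998, were dim. The study had reported Mertk as higher in BSM, partly from these arrays. The dendritic cell list had a median of 6.003 in BMDM and 6.01 in BSM, the eosinophil, basophil and mast cell list 4.77 and 4.40, and the megakaryocyte and platelet list 5.24 and 5.39.

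Markers of progenitors, neutrophils and dividing cells had higher medians. The list of monocyte and granulocyte progenitors had 15 measured genes with a median of 7.90 in BMDM and 4.84 in BSM, and 11 were higher and 2 lower in BMDM. The neutrophil list had 16 measured genes, 5 of them beyond rank 9215. The list had a median of 8.22 in BMDM and 4.72 in BSM, with 14 genes higher and 2 lower in BMDM. It includes S100a8 and S100a9, which monocytes also make, and Cd177, which the classical monocyte list holds as well. The granule peptide Camp had 8.35, 8.82 and 9.12 in BMDM, and lactoferrin (Ltf) had 6.11, 6.59 and 7.52. Csf3r, also on the neutrophil list, was lower in BMDM, with 9.86, 9.67 and 9.93 against 10.93, 10.94 and 10.93 in BSM. The erythroid list had 9 measured genes, with a median of 5.54 in BMDM and 4.96 in BSM, 5 of them beyond rank 9215 and only Hbb-b1 among the 300. All 20 measured proliferation genes were higher in BMDM, with a median of 9.20 in BMDM and 5.38 in BSM. Mki67, a nuclear protein of cycling cells, had 10.51, 10.67 and 10.46 in BMDM and 4.66, 4.45 and 4.61 in BSM. The part of each of these cell types in the levels of the 300 genes was not tested.

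**Figure D2:**
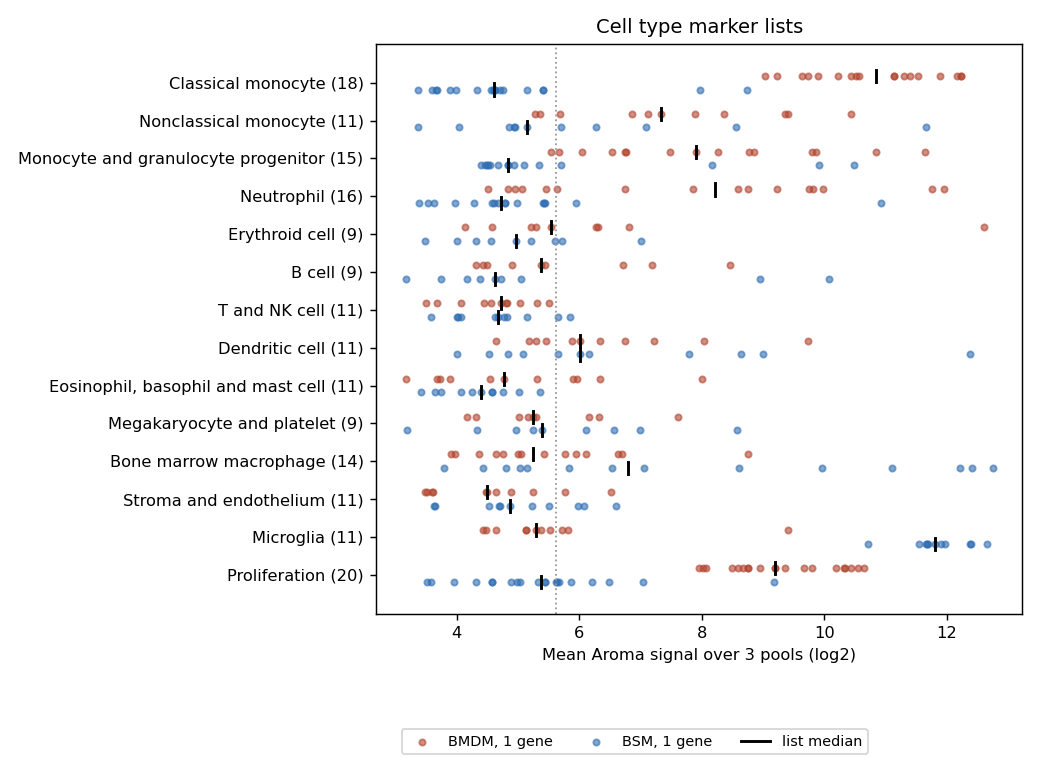
Mean log2 Aroma signal over 3 pools of each measured gene of 14 marker lists, in BMDM (upper row of each pair, red) and in BSM (lower row, blue), with list medians as black bars. The dotted line is the median of all ranked genes in BMDM, 5.61. The classical monocyte and proliferation lists lie to the right in BMDM, and the microglia list lies to the right in BSM.

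The level fell slowly along the ranking. It was 14.07 at rank 1, 12.51 at rank 30, 11.69 at rank 100 and 10.59 at rank 300, an 11.1-fold range of linear signal over the 300 genes. The 300 genes were 1.63% of the genes ranked and held 27.1%, 27.7% and 27.7% of the summed linear signal on BMDM pools 1, 2 and 3. The same genes held 17.0%, 16.9% and 18.1% on BSM pools 1, 2 and 3, whose own first 300 genes held 26.5%, 25.8% and 26.6%. The shares held by the brightest genes of each cell type were of like size. The deposited values had been quantile normalized, which draws the arrays toward 1 distribution and so favours like shares. Nothing is read from this likeness.

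The limit at rank 300 cuts through a dense stretch, since 66 genes, 25 of them members, lay within 0.1 of its level. Just inside were Eef1g (10.62), Capns1 (10.61), Sema4a (10.61), Aprt (10.60) and H4c14 (10.59). Just outside were Hnrnpf (10.59), Iqgap1 (10.59), Psmb2 (10.58), Arpc5 (10.58) and Myl12a (10.58). Of the 300 genes, 273 were among the first 300 of every single BMDM pool.

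The first 30 genes were mostly parts of ribosomes and chromatin. They held 17 ribosomal protein genes, 4 histone genes and 1 ribosomal protein retrogene. The rest were Actb and Sh3bgrl3 of the cytoskeleton class, the surface proteins Ly6e and Fcer1g, the lysosomal membrane protein Laptm5, the class I light chain B2m, the globin Hbb-b1 and the LIM domain protein Crip1. Laptm5, a lysosomal protein of blood cells, had 12.70, 12.70 and 12.68 in BMDM and 12.99, 13.13 and 13.15 in BSM. Crip1 had 12.76, 12.84 and 12.77 in BMDM and 7.62, 7.42 and 7.51 in BSM. The pair sit near each other in the BMDM order and far apart in the BSM order.

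Against BSM, 245 of the 300 genes were higher in BMDM, 21 were lower and 34 did not pass the threshold (limma, adjusted p under 0.05). Over all 21837 rows, 21.6% were called higher and 28% lower in BMDM. Choosing genes by their BMDM signal tilts this count toward BMDM by itself, so nothing is read from its direction. The median of BMDM minus BSM was 1.09 over the 300 genes and -0.18 over all rows. The BMDM arrays had lower medians, 42.8 to 45.2 in linear units, than the BSM arrays, 48.8 to 52.1. Centring each array on its median moved the median of all rows to 0.01 and the split of all rows to 5792 higher and 3253 lower, against 4718 higher and 6120 lower as deposited. A second quantile normalization, which gives all arrays 1 distribution, moved the median over the 300 genes to 0.69, with 197 genes higher and 39 lower.

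The sizes of the differences were uneven. Of the 245 genes, 169 were at least 2-fold, 66 at least 4-fold, 38 at least 16-fold and 32 at least 32-fold higher in BMDM. Of those 32, 6 were granule or oxidase genes, 6 were S100 or annexin genes, 5 encoded secreted proteins and 4 encoded surface receptors or adhesion proteins. In the BSM order, 143 of the 300 genes were also among the first 300, while 44 lay beyond rank 3000 and 24 beyond rank 9215. The overlap of the 2 orders was therefore 47.7% of each list of 300.

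**Figure D3:**
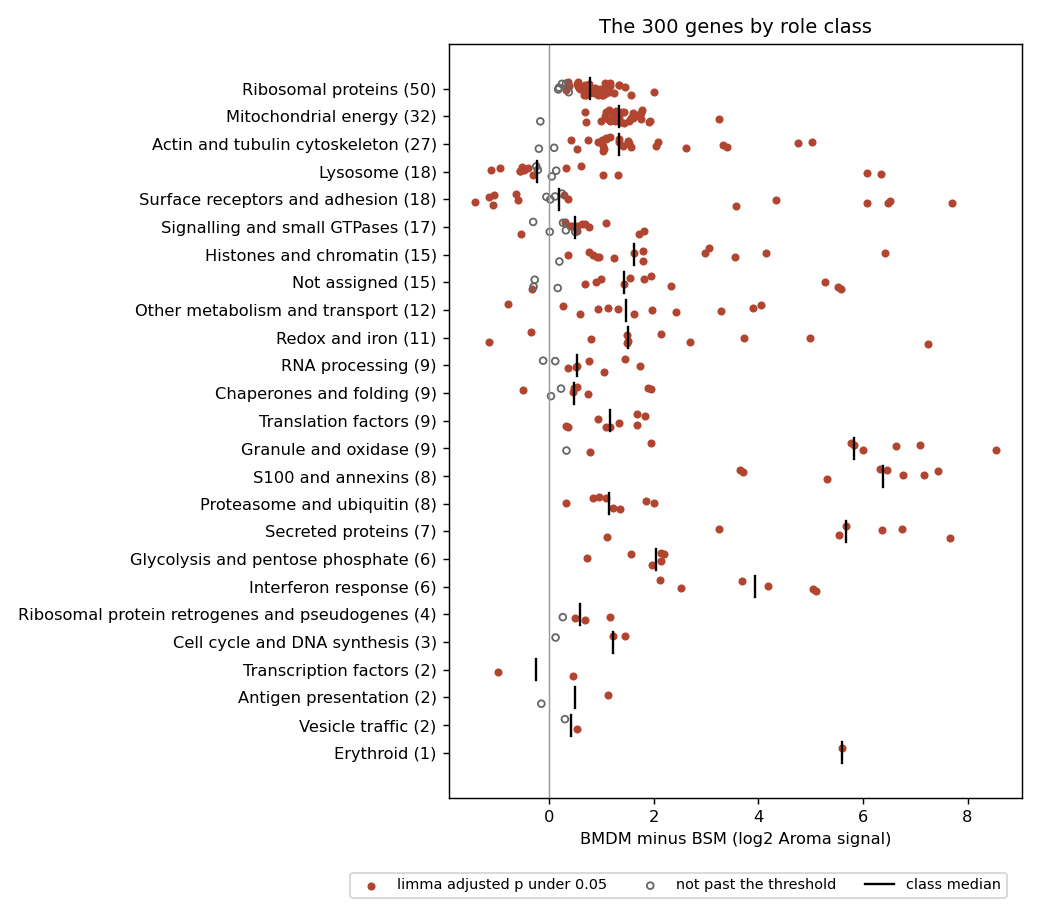
BMDM minus BSM in log2 Aroma signal for each of the 300 genes, 1 point a gene, by role class (number of members in brackets). Filled points passed limma's adjusted p of 0.05, open points did not, and bars are class medians. The granule, S100 and secreted classes have medians of 5.84, 6.39 and 5.69, and the lysosome class has a median of -0.23.

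Ribosomal proteins, which build the subunits that translate messenger RNA, were the largest class, with 50 of the 62 measured genes and 24.6% of the linear signal of the 300. Rps28 had 13.08, 13.16 and 13.19 in BMDM and 12.48, 12.44 and 12.71 in BSM, and Rps16 had 12.997, 13.02 and 13.12 in BMDM and 11.74, 12.12 and 12.22 in BSM. The class spanned a narrow range of differences, with a median of 0.79, 45 genes higher, none lower and 5 not called. After a second quantile normalization 34 were higher, and Rpl10a, higher here by 0.74, was lower by 1.15 in the Expression Console table. Rpsa, the laminin-binding subunit protein, differed most, with 12.15, 12.09 and 12.09 in BMDM and 9.85, 10.24 and 10.20 in BSM. As many as 44 of the 50 were also among the first 300 of BSM.

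Ribosomal protein genes are known for a start site within a run of pyrimidines, which puts such a run at the head of the messenger RNA. In the RefSeq promoter windows of build GRCm38.p6, present for 238 of the 300 genes and 14712 of all 18430, a C at the annotated start followed by 4 bases that are each C or T was found at 12 of 40 ribosomal protein members (30%). It was found at 2 of the 198 other members (1.01%) and at 2.77% of all genes with a window. A gene counted if any of its windows had the run. Only the gene's own strand was read. The windows of 4 of these members are shown because the run is visible at their start, from 10 bases before the start to the 15th base of the transcript, with the run of C and T from the start in capitals.
Rps10 (chr17:27635230-27635254, minus strand): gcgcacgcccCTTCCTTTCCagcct
Rps27 (chr3:90213634-90213658, minus strand): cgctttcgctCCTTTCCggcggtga
Fau (chr19:6057937-6057961, plus strand): gcccccacttCTTCCTCTTTCTTga
Rps18 (chr17:33955651-33955675, minus strand): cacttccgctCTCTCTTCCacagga

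The 4 genes were close in BMDM signal. Rps10 had 12.68, 12.78 and 12.63, Rps27 had 12.65, 12.78 and 12.65, Fau, whose product is fused to a ubiquitin-like part, had 12.56, 12.61 and 12.70, and Rps18 had 12.34, 12.39 and 12.40. Their differences from BSM were 0.74, 0.39, 0.69 and 1.45. Translation factors added 9 genes, all higher in BMDM, among them the elongation factor Eef2 (11.75, 11.77 and 11.67) and the poly(A)-binding protein Pabpc1 (11.63, 11.74 and 11.64).

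Histones and other chromatin proteins gave 15 genes and 9.8% of the linear signal of the 300. The 4 brightest genes of BMDM were H2A genes: H2ac8 had 14.04, 14.10 and 14.08 in BMDM, and H2ac12, H2ac15 and H2ac6 had means from 13.87 to 13.97. Their differences from BSM were small, 0.76 to 0.95, and turned negative for H2ac6 after a second quantile normalization (-0.03) and for H2ac6 (-1.19) and H2ac8 (-0.11) in the Expression Console table. These genes are near-identical, so a level cannot be given to a single one of them. Other members of the class differed more. H1f5, a linker histone, had 10.99, 11.56 and 11.31 in BMDM and 5.12, 4.27 and 5.17 in BSM, and H2ax, the variant phosphorylated at DNA breaks, had 10.85, 11.17 and 10.87 in BMDM with a difference of 4.15. Hmgb2, a DNA-bending protein of dividing cells, differed by 3.56.

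Energy metabolism supplied 32 mitochondrial genes, 26 of them from the 117 measured genes found by name pattern and the rest assigned afterwards. The 32 had a median difference of 1.35, and 31 of them were higher and none lower in BMDM. The brightest was Ucp2, an inner membrane carrier, with 12.40, 12.45 and 12.38 in BMDM and 11.37, 11.07 and 11.18 in BSM. Subunits of ATP synthase and cytochrome oxidase made up most of the class, such as Cox8a (11.52, 11.65 and 11.66 in BMDM). Glycolysis and the pentose phosphate route gave 6 of 19 measured genes, all 6 higher in BMDM with a median of 2.05. Gapdh had 11.88, 12.13 and 12.06 in BMDM and 11.42, 10.98 and 11.49 in BSM. The pentose phosphate enzymes Taldo1 and Tkt, which recycle sugars for NADPH and nucleotides, differed by 2.15 and 2.20.

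Redox and iron genes gave 11 members, 10 of them from the 73 measured genes found by name pattern. Of the 11, 9 were higher and 2 lower in BMDM. Gpx1, which reduces peroxides with glutathione, had 12.16, 12.29 and 12.18 in BMDM. Mgst1, a membrane-bound glutathione transferase, had 11.06, 11.17 and 11.17 in BMDM with a difference of 7.25, and Gstm1 differed by 4.99. Txnip, which binds and restrains thioredoxin, was lower in BMDM, with 10.68, 10.82 and 10.91 against 11.98, 11.81 and 12.02 in BSM. The iron store Fth1 was lower by 0.34.

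The cytoskeleton contributed 27 genes with a median difference of 1.33. Actb, the main actin of motile cells, had 12.997, 13.03 and 13.07 in BMDM and 12.90, 12.95 and 12.95 in BSM, and did not pass the threshold (limma difference 0.10, adjusted p = 0.37; -0.17 after a second quantile normalization). Vim, an intermediate filament protein, had 11.96, 11.89 and 11.78 in BMDM and 7.06, 6.82 and 6.65 in BSM. The actin binders Tagln2 and Flna differed by 3.40 and 3.32. Tuba4a differed by 4.77, within a tubulin family whose probes may be shared.

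The members of 3 small classes had the largest median differences, as a description only, since each entered through a high BMDM signal. The 8 S100 and annexin members, of 25 measured genes whose products bind calcium, were all higher in BMDM, with a median difference of 6.39 and a smallest difference of 3.66. S100a6 had 11.88, 12.17 and 12.21 in BMDM and 5.11, 4.47 and 4.39 in BSM. The pair S100a8 and S100a9, whose products together form the antimicrobial protein calprotectin, had 11.84, 12.06 and 11.97, and 11.60, 11.90 and 11.77, in BMDM. In BSM, S100a8 had 4.01, 5.94 and 4.40 and S100a9 had 4.96, 5.96 and 5.39, so BSM pool 2 was the highest for both. Anxa2, which binds membranes and S100A10, had 11.16, 11.15 and 11.18 in BMDM and 4.88, 4.59 and 4.65 in BSM.

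Granule and oxidase genes gave 9 members, 8 of them from the 25 measured genes found by name pattern. The 9 had a median difference of 5.84, and 8 were higher and none lower. Lyz2, lysozyme, was the brightest, with 12.20, 12.31 and 12.21 in BMDM and 10.32, 10.42 and 10.13 in BSM. Cybb, the catalytic subunit of the phagocyte oxidase, had 11.43, 11.49 and 11.60 in BMDM and 5.84, 5.61 and 5.56 in BSM. Its partner Cyba had 11.20, 11.39 and 11.42 in BMDM, with a difference of only 0.79, so the subunits of 1 enzyme complex differed unequally. Hp, haptoglobin, differed by 6.64, and Prtn3, a serine protease of azurophil granules, by 6.01. Mpeg1, a pore-forming protein of phagocytes, had 10.87, 11.12 and 11.29 in BMDM and was not called.

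Secreted proteins gave 7 of 81 measured genes, all higher in BMDM with a median of 5.69. Beside Fn1, F13a1, the transglutaminase subunit that stabilises fibrin clots, had 11.90, 11.93 and 11.86 in BMDM and 4.92, 5.34 and 5.18 in BSM. The galectins Lgals3 (12.002, 12.05 and 12.11) and Lgals1 (11.59, 11.66 and 11.57) differed by 5.54 and 5.69. The complement protein C3 (11.65, 11.52 and 11.61) differed by 6.37. Ccl9, a chemokine, differed least in the class, by 1.11.

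A TATA box, here the letters TATAAA on the gene's strand within 40 to 11 bases before the annotated start, stood at 15 of 238 members with a window (6.30%), at none of 40 ribosomal protein members and at 5 of 23 of the members at least 32-fold higher in BMDM (21.7%). Over all 14712 genes with a window the share was 2.90%. A gene counted if any of its windows had the motif. The bases 40 to 11 before the start are shown for 4 members that are much higher in BMDM, with the motif in capitals.
S100a4 (chr3:90603730-90603759, plus strand): ctggcagggTATAAAtaggtcagattgttg
S100a8 (chr3:90669031-90669060, plus strand): agctttcctcTATAAAagcagctgacactt
Vim (chr2:13574271-13574300, plus strand): aacagtgtTATAAAagcagcgcccttggcg
H1f5 (chr13:21780636-21780665, minus strand): agcaccggcttaTATAAAccaggagcctga

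Surface receptors and adhesion proteins gave 18 members, spread on both sides of 0: 8 were higher, 6 lower and 4 not called, or 6 higher and 9 lower after a second quantile normalization. Emb, embigin, a partner of monocarboxylate transporters, had 11.23, 11.40 and 11.26 in BMDM and 3.73, 3.56 and 3.48 in BSM. Adgre5, which encodes CD97, and Ly6a2, of the Ly6 family, differed by 6.08 and 6.48. On the other side, Ly86, which encodes MD-1, had 11.07, 10.92 and 10.89 in BMDM and 12.36, 12.41 and 12.32 in BSM, the largest fall among the 300 at -1.41. Its partner Cd180 had 10.52, 10.75 and 10.85 in BMDM and 11.68, 11.74 and 11.83 in BSM. Selplg, the selectin ligand of leukocytes, was lower by 1.15, and Sirpa, the receptor for CD47, by 1.08.

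The signalling adaptors of activating receptors were bright in both cell types. Fcer1g had 12.56, 12.59 and 12.57 in BMDM and 12.41, 12.47 and 12.49 in BSM, and Tyrobp had 12.04, 12.20 and 12.16 in BMDM and 12.26, 12.07 and 12.21 in BSM. The differences were 0.12 ± 0.09 and -0.05 ± 0.10 (SE), and neither passed the threshold (limma adjusted p = 0.30 and 0.71). A p above the threshold does not show equal levels, and the sign of both depended on the scaling, with -0.24 for Fcer1g after a second quantile normalization and 0.14 for Tyrobp after centring. The light chain B2m differed by -0.14 ± 0.10 (limma adjusted p = 0.24), or 0.04 after centring, while the heavy chain H2-D1 was higher in BMDM by 1.13.

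Lysosomal genes gave 18 members, 14 of them from the 60 measured genes found by name pattern. The 18 had a median difference of -0.23, with 6 higher, 8 lower and 4 not called. Lower calls numbered 5 after centring, 12 after a second quantile normalization and 3 in the Expression Console table. The cysteine protease Ctss had 11.02, 11.13 and 11.30 in BMDM and 12.28, 12.19 and 12.27 in BSM, and the inhibitor Cst3 was lower by 0.93. By contrast, Plbd1, a phospholipase-like protein, and Napsa, an aspartic protease, had 11.25, 11.40 and 11.49, and 11.14, 11.32 and 11.32, in BMDM, and differed by 6.35 and 6.07. Plbd1 and Napsa were the only lysosomal members at least 32-fold higher in BMDM.

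The remaining classes were small. All 6 interferon-response genes were higher in BMDM, with a median of 3.93, led by Ifitm3, which blocks virus entry, at 12.46, 12.48 and 12.40, although Ifi27 was lower by 0.92 in the Expression Console table. Of the 17 signalling genes 11 were higher and 1 lower, or 3 and 3 after a second quantile normalization, with Rac2, a GTPase of blood cells that switches on the oxidase, at 11.70, 11.80 and 11.83. The 8 proteasome and ubiquitin genes were all higher, by 0.32 to 2.02. Of 9 chaperone and folding genes 6 were higher, 1 lower and 2 not called, and 3 were higher after a second quantile normalization. Only 2 members fell in the transcription factor class, Spi1 and Zfp36. Spi1, which encodes PU.1, the master factor of myeloid cells, had 10.95, 11.07 and 11.11 in BMDM and 10.53, 10.46 and 10.74 in BSM. Zfp36 was placed there by its symbol, although it encodes an RNA-binding protein that speeds messenger decay. It had 11.13, 10.97 and 10.63 in BMDM and 12.10, 11.57 and 11.96 in BSM. Of the 15 genes with no class, Plp2, a proteolipid, and Crip1 differed by 5.58 and 5.27. Irf8, the factor that steers progenitors to monocytes, was not a member, at 9.87, 9.73 and 9.78 in BMDM and 9.73, 9.97 and 10.04 in BSM.

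The 3 BMDM pools were close to each other. Over all ranked genes their pairwise correlation was 0.992, against 0.845 to 0.860 between a BMDM and a BSM array. The SD over the 3 pools had a median of 0.0755 over the 300 genes and 0.120 over all ranked genes. It was 0.0909 at ranks 301 to 1000 and 0.144 at ranks 9001 to 18430. Of the 300 genes, 202 had an SD under 0.1 and 12 (4%) over 0.2, against 20.7% of all ranked genes. Of the 300, 196 were lowest in pool 1 and 161 were highest in pool 2, with median levels of 11.28, 11.39 and 11.38 in pools 1, 2 and 3. Among all ranked genes, 32.8% were lowest in pool 1 and 32.8% highest in pool 2. Without pool 1 the median SD of the 300 was 0.0448. Chil3 had the smallest SD, 0.0036, followed by H2bc14, Eif3h, H2-D1 and Rpl15 with 0.0049 to 0.0063. These are the extremes of 300 SDs, each over 3 values, and they depended on the summary. In the Expression Console table the SD was 0.058 for Chil3 and 0.081 for Eif3h.

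The 8 genes of largest spread did not vary in the same way. The azurophil granule genes Prtn3, with 11.09, 11.09 and 10.36, and Mpo, with 12.005, 11.82 and 11.09, were both lowest in pool 3. Ela2 was lowest there too, with 11.06, 11.02 and 10.17. The symbol Ela2 is kept as the file gives it, since it is an older name of both Elane, which encodes neutrophil elastase, and Cela2a, which encodes a pancreatic elastase. Ctsg, an azurophil protease at rank 620, ran the same way with 10.39, 10.18 and 9.02. Slfn1 had 10.89, 10.30 and 10.998 and was lowest in pool 2. The adult globin Hbb-b1 had 12.29, 12.60 and 12.91 in BMDM, lowest in pool 1 and highest in pool 3, and 5.92, 7.89 and 7.20 in BSM. The histones H1f5 and H4c14 (10.29, 10.86 and 10.63) were lowest in pool 1, and Zfp36 was lowest in pool 3.

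Some of these genes are themselves on the wider lists. Of 15 progenitor genes, 13 were lowest in pool 3, with a summed linear signal of 10905, 10294 and 6535 in pools 1, 2 and 3. Mpo, Prtn3 and Ctsg are the brightest genes of that list and weigh most on its sums. They are among the 13, so the list is not independent of the genes named above. Of 20 proliferation genes, 17 were lowest in pool 3 and 14 highest in pool 2, with sums of 15133, 16557 and 13683. In the other direction, 14 of 16 neutrophil genes were highest in pool 3, with sums of 10952, 12624 and 13233. S100a8 and S100a9, the brightest genes of the list, weigh most on these sums, and these 2 were highest in pool 2. All 9 erythroid genes were lowest in pool 1 and 7 were highest in pool 3, with sums of 5370, 6648 and 8233, of which Hbb-b1 made up 93.4%, 93.5% and 93.5%. Of the 8 others, all 8 were lowest in pool 1 and 6 highest in pool 3, while the list's median level was 5.39, 5.69 and 5.55, highest in pool 2. Over all ranked genes, 31.2% were lowest in pool 3, 36.2% highest in pool 3, 32.8% lowest in pool 1 and 32.8% highest in pool 2. By the Expression Console values, 13 of 16 progenitor genes and 18 of 19 proliferation genes were lowest in pool 3, and 11 of 14 neutrophil genes and 6 of 7 erythroid genes were highest there.

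Pool 3 thus had the lowest sum of the progenitor list and the highest sums of the neutrophil and erythroid lists. The list medians ran the same way for progenitors (8.13, 8.01 and 7.57) and neutrophils (7.79, 8.19 and 8.66), and not for the erythroid list. The classical monocyte list had sums of 38377, 40677 and 41219. Vcan, a proteoglycan of classical monocytes, had 8.54, 8.92 and 9.65. The eosinophil gene Prg2 had 6.96, 9.19 and 7.84, highest in pool 2. The part of different cell mixtures in the spread of the 300 genes was not tested.

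**Figure D4:**
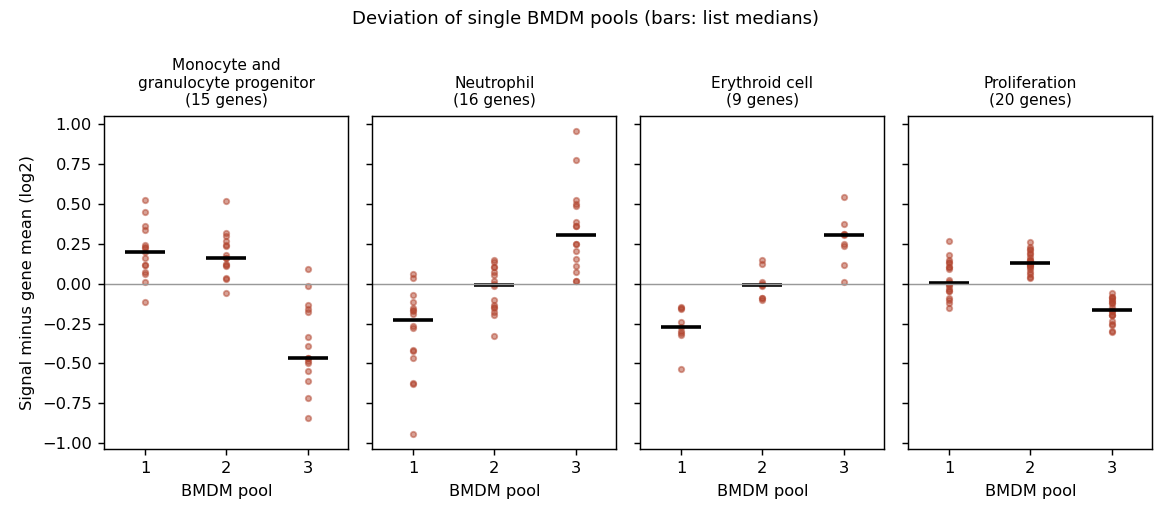
Log2 Aroma signal of each gene of 4 marker lists minus that gene's mean over the 3 BMDM pools, by pool, with list medians as bars. The progenitor and proliferation genes lie lowest in pool 3, and the neutrophil and erythroid genes lie highest there.

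The female pool was set against the 2 male pools of BMDM, a comparison with 1 pool on one side. No row of 21837 was higher in the female pool (0%) and 3 were lower (0.0137%). Eif2s3y, a Y-linked translation factor gene, had 2.76 in the female pool and 7.93 and 7.94 in the male pools, a difference of -5.17 ± 0.15 (SE, limma adjusted p = 0.0016). Kdm5d, a Y-linked histone demethylase gene, had 3.73 in the female pool and 6.69 and 6.62 in the male pools, a difference of -2.92 ± 0.16 (limma adjusted p = 0.016). The third row carried no gene symbol. The levels in the female pool, which has no Y chromosome, also show what a gene without transcript can read on this array. None of the 300 genes was called by limma, and none had an unadjusted p under 0.05, while 894 rows of 21837 did (4.09%). With 1 female pool, differences of the sizes seen among the 300 are too small to be called, so the lack of calls says nothing about them. The largest difference among them, Mpo at 0.55, is the one already seen in the pools, where male pool 2 sat near the female pool.

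The Expression Console table, a second summary of the same arrays, gave a check of the ranking. Of the 300 genes, 194 had a row of a single symbol in it, and 156 of these (80.4%) were among its own first 300. A further 6 were at its ranks 301 to 600 and 32 beyond 600. The markers kept high places, with Chil3 at rank 36, Fn1 at 23, S100a4 at 24, Mpo at 69, Ccr2 at 61 and Clec12a at 247. Classes differed in this check. All 18 lysosomal members and all 17 surface members with a row were among its first 300, but only 3 of 12 ribosomal protein members and 3 of 5 histone and chromatin members were, and the other ribosomal protein members had no row of a single symbol.

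The 32 genes were mostly of families or of housekeeping classes, with 9 ribosomal protein and 5 mitochondrial genes. H2ac8, at 14.07 in the Aroma table, had 5.03 and rank 8806 in the Expression Console table. Txn1 (thioredoxin) had 4.25 there and Pkm (pyruvate kinase) had 5.51, against Aroma means of 11.56 and 11.26. For these genes the rank depended on the summary. Over 14416 genes present in both tables, the BMDM means had a Pearson correlation of 0.962 and a Spearman correlation of 0.968, across genes, which share arrays and probes.

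**Figure D5:**
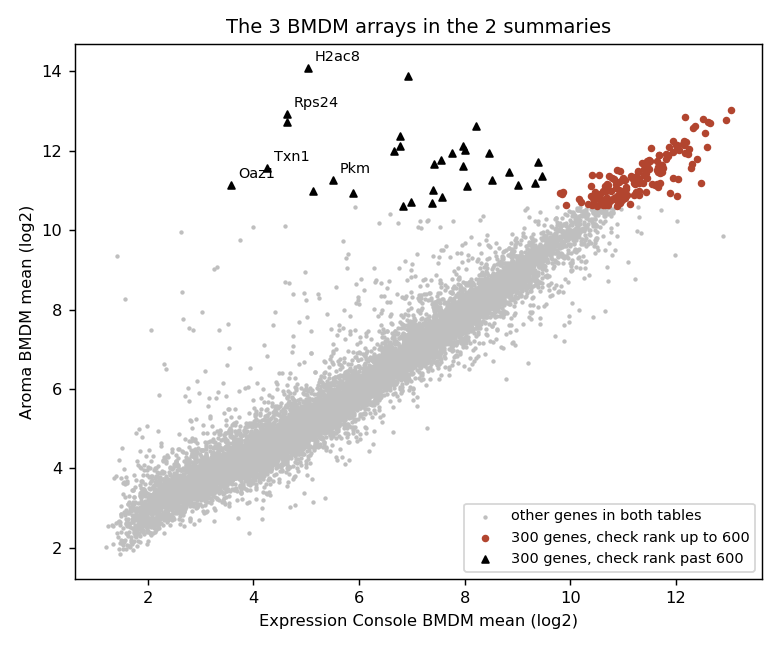
Mean log2 signal over the 3 BMDM arrays in the Aroma table (vertical) against the Expression Console table (horizontal) for the 14416 genes in both. Red circles are members at rank 600 or better in the Expression Console table, and black triangles are the 32 members beyond it, which lie above the cloud.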

How the data were processed

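Per the labels, RNA of 3 BMDM pools and 3 BSM pools was measured on 6 Affymetrix Mouse Exon 1.0 ST arrays. The authors deposited the Aroma table as linear intensity values after RMA background correction, quantile normalization and a probe-level model. They deposited the Expression Console table as log2 values made with RMA, and the submitters' processing notes name Expression Console, Partek and mm9. Intensity was taken to log2 here. Rows of exactly 1 gene symbol were kept (18821 of 21837 Aroma rows, 14996 of 23332 Expression Console rows), with old symbols updated where the reference allowed and 1 row kept per gene, giving 18430 and 14847 genes.

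Genes were ranked by the mean of the 3 BMDM arrays. BMDM minus BSM, and female minus male BMDM pools, were fitted with limma 3.58.1 (R 4.3.3; lmFit and eBayes) on all 21837 rows of the 6 arrays, with Benjamini-Hochberg adjustment and a threshold of 0.05. The fit was tested on simulated data. Errors are SE of the fit, and SD is over 3 pools. The labels call the pools biological replicates, and 3 arrays per cell type limit the precision. Sums and counts were computed with Python 3.11.15 and pandas 2.3.3.

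Members were assigned to role classes by name patterns, which left 64 unassigned. A further 49 of these were assigned afterwards by function, and 15 stayed without a class. Only members were assigned afterwards, so shares of measured genes use the name patterns alone. Named genes were the 6 markers, sort and sex genes, the 30 brightest, up to 4 per class or list, ranks 296 to 305, and the extremes of difference, pool spread and sex difference. Some further class members, chosen after their values were seen, are named as examples. The members, lists and classes were chosen with earlier results of these data known. Alternatives were the other table, other scalings, bright rows only, other variance models, a replicate block, a sex term and leaving out each array. Promoter windows came from RefSeq (GRCm38.p6), matched by symbol, and the arrays' mm9 coordinates were not used.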

Additional observations from a re-analysis of the deposited data

Results flagged for a closer look

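Rows without a single gene symbol were outside the ranking, and some were bright. Of 763 Aroma rows that list several symbols, 57 reached the level of rank 300 and 55 of those were higher in BMDM than in BSM, with a highest mean of 13.95. Of 2253 rows with no symbol, 54 reached that level, and 43 of those were higher and 3 lower in BMDM, with a highest mean of 13.97. They were noted because they carry signal above BSM in data that the ranking does not use. Picking rows by BMDM signal tilts these counts toward BMDM, against 21.6% higher over all rows, so nothing is read from their direction.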

How the results depend on the processing

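The ranking kept 295 to 297 of the 300 genes when a BMDM array was left out and 156 in the Expression Console table. The median SD of the 300 genes was 0.0448 (without BMDM pool 1) to 0.0845 when an array was left out. Genes higher in BMDM numbered 229 to 244 and genes lower 17 to 22 with an array left out. They numbered 263 and 14 after centring, 245 and 20 with the sex term, and 197 and 39 after a second quantile normalization. Of 194 genes with a row in the Expression Console table, 133 were higher. Chosen after seeing the data, the counts were 152 higher of the 194 with a row in both tables and 117 of the 156 in the first 300 of both. Of all rows, lower calls numbered 6120 as reported, 1955 in the Expression Console table, 3253 after centring, 3342 among rows at or above the median level and 4341 to 5656 with an array left out. The median of all rows was -0.18 as reported, 0.0473 in the Expression Console table, 0.0135 after centring and 0.10 when only the brighter rows were fitted. Between the female and male pools, 0 rows were called by limma in the Expression Console table, where 1279 had an unadjusted p under 0.05, and 2 or 3 rows were called elsewhere.

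Deviations of same-numbered BMDM and BSM arrays correlated at 0.06, 0.0021 and 0.01, and those of other pairs at -0.12 to 0.11. From 3 arrays per cell type, this cannot show whether the replicate numbers pair the pools. The pools numbered 1 share sex and the earlier set. With the replicate number as a block, 238 genes were higher and 19 lower, and 4592 and 5727 of all rows.

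Of 1708 single-gene values under alternatives, 1615 kept direction and side of the threshold, 51 lost the call, 20 gained it and 22 reversed. In the Expression Console table H2ac8 (-0.11), H2ac6 (-1.19), Rps24 (-0.39), Rpl10a (-1.15) and Ifi27 (-0.92) reversed. After a second quantile normalization H2ac6 (-0.0274), Rps23rg1 (-0.25), Actb (-0.17), Rps29 (-0.0629), Ly6e (-0.0224), Fcer1g (-0.24), Rpl39 (-0.0463), Psap (-0.0825), Hspa8 (-0.38), Ube2d3 (-0.14), Hnrnpk (-0.32), Srsf3 (-0.0445), Mpeg1 (-0.0899), Cdc42 (-0.26) and Vamp8 (-0.0584) reversed, and after centring B2m (0.045) and Tyrobp (0.14). The causes were not tested. With no detection calls, differences against dim levels include background.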
